A study of Rattus norvegicus with 6 samples.

Results

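The genes described here load peptides onto MHC class II molecules, and they number 9 of the 15284 genes that could be named on the array. They are Cd74, RT1-Da, RT1-Db1, RT1-Ba, RT1-Bb, RT1-DMa, RT1-DMb, Ciita and Ctss. They were chosen on the same difference between phenolphthalein and vehicle that is given below, so their differences are a description and carry no test. The animals were male Sprague-Dawley rats of the outbred Crl:CD(SD) stock, bought at 5 weeks of age, and the tissue was their renal cortex, the part of the kidney with the glomeruli and proximal tubules. In the phenolphthalein group, 3 rats were given the compound at 1000 mg/kg/day for 4 weeks. In the vehicle group, 3 rats were given corn oil for 4 weeks. Each rat's RNA was hybridised to a single-colour Agilent array of 61657 probes besides control spots.

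MHC class II molecules are pairs of an alpha and a beta chain that carry peptides from engulfed proteins to the cell surface, where CD4+ T cells read them. In the kidney they are known mainly from dendritic cells, macrophages and B cells between the tubules, and tubular cells can gain them under interferon gamma. In the rat the MHC is called RT1: RT1-D corresponds to human HLA-DR and RT1-B to HLA-DQ. The chains assemble on the invariant chain Cd74, which the protease cathepsin S (Ctss) trims in endosomes, and RT1-DM then exchanges the remaining fragment for a peptide. The transactivator CIITA switches these genes on together. It has no DNA contact of its own and is held by factors bound to the X and Y boxes, short elements before the start of class II genes.

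These elements were looked for in RefSeq promoter windows of the GRCr8 assembly, from 250 bases before to 50 bases after each start. A window was present for 7 of the 9 genes, all but Ciita and RT1-DMb. The letters searched on both strands were ACNGATG for the core of the X box and GATTGG for the core of the Y box, which lies inside the longer Y box letters CTGATTGG. The Y core was in 5 of the 7 windows and in 15.3% of all 27457 windows, and the X core in 5 of 7 and in 9.96% of all. An X core followed on the same strand by a Y core, 20 to 40 bases later from start to start, was in the windows of RT1-Da, RT1-Db1, RT1-Bb and RT1-DMa. Only 21 of the 27457 windows held that pair (0.0765%). The 4 stretches are shown because the same spacing, 28 or 29 bases, recurs in each. Capitals mark first the X core and then the Y core, and each is read 5′ to 3′ on the strand of its gene. They lie at chr20:4515311-4515385 (plus strand) for RT1-Da, chr20:4560223-4560296 (minus) for RT1-Db1, chr20:4604160-4604233 (minus) for RT1-Bb and chr20:4712380-4712454 (minus) for RT1-DMa.
RT1-Da: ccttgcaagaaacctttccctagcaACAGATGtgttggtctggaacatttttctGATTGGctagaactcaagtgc
RT1-Db1: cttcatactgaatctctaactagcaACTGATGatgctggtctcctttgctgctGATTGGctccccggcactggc
RT1-Bb: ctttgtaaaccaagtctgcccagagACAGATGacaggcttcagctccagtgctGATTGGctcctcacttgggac
RT1-DMa: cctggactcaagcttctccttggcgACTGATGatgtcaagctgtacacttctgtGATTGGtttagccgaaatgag
RT1-Ba held a Y core at base -44 from its start and no X core, the Ctss window held an X core alone, and neither set of letters was in the Cd74 window. A match describes these letters only.

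**Figure D1:**
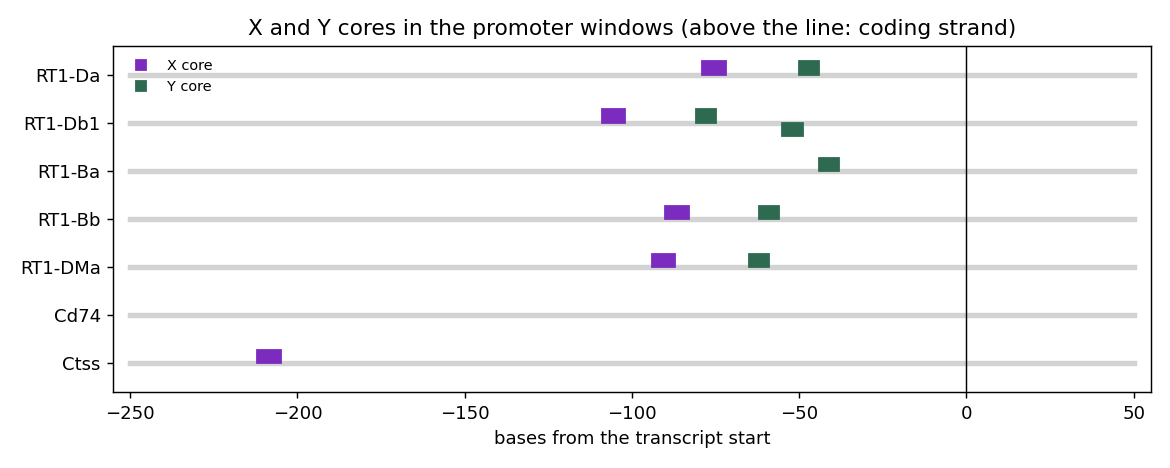
Places of the X core (purple) and the Y core (green) in the promoter windows of 7 class II presentation genes, in bases from the transcript start; boxes above a line are on the gene's own strand. In RT1-Da, RT1-Db1, RT1-Bb and RT1-DMa an X core that begins between bases -109 and -79 is followed by a Y core 28 or 29 bases later.

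Levels are log2 intensities relative to the 75th percentile of the same array, so 0 is that percentile. The 9 genes had 19 probes, and each probe was kept apart. A probe entered the test if 3 or more of the 6 arrays read it well above background. This held for 17 probes of 8 genes. The only RT1-Ba probe was not well above background on any array, and a probe of RT1-Bb was well above background on 1 array only. Over the array, 43473 probes were tested, between 64.8% and 72.1% of probes per array were well above background, and no probe was saturated. The renal cortex markers were bright in both groups: the summed level of 10 tested markers was 1340 to 1385 times the 75th percentile in phenolphthalein rats and 1365 to 1423 times in vehicle rats. All vehicle arrays lay on 1 slide, phenolphthalein replicate 1 lay on another slide, and phenolphthalein replicates 2 and 3 shared one more, so slide and group cannot be told apart. Replicate numbers are those of the scanner files. In the deposited value table of the series each column held the values of another replicate of the same group, so the number of an animal within its group is not settled.

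Of the 17 tested probes, 16 had lower means with phenolphthalein and 1 had a higher mean. The median difference was -0.41 (log2, phenolphthalein minus vehicle), against -0.01 over all tested probes, of which 53.5% were lower. No probe of the array passed limma's test at an adjusted p of 0.05 in either direction (0% lower and 0% higher of 43473; smallest adjusted p = 0.221). At an unadjusted p under 0.05, 4.91% of all tested probes were lower and 3.91% higher. The groups did not overlap for 10 of the 17 probes, each lower with phenolphthalein, against 8.98% of all tested probes lower without overlap. Because these genes were selected on this contrast, that count says nothing further about them. RNA came from whole cortex, so fewer cells of a type and less RNA per cell cannot be told apart.

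RT1-Da, the alpha chain of the DR-like molecule, stood at 2.77, 3.00 and 3.11 in phenolphthalein rats and at 3.52, 3.33 and 3.27 in vehicle rats by its brighter probe, in the order of the replicates. All phenolphthalein rats were below all vehicle rats. The means were 2.96 ± 0.18 with phenolphthalein and 3.37 ± 0.13 with vehicle (SD, n = 3 each), a difference of -0.41 (SE 0.11), or 1.33-fold lower. The second probe gave 0.51, 0.82 and 1.02 in phenolphthalein rats, against 1.40, 1.28 and 1.13 in vehicle rats. It ordered the 6 arrays much as the first did (Pearson's r = 0.989 over the 6 arrays, as a description), with a difference of -0.49 (SE 0.14).

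RT1-Db1, a beta chain partner of RT1-Da, had the largest differences among the tested probes, and its tested probes disagreed in sign. Its brightest probe, A_64_P130578, stood at 2.09, 2.19 and 2.46 in phenolphthalein rats and at 3.50, 2.96 and 2.71 in vehicle rats. The means were 2.25 ± 0.19 and 3.06 ± 0.40 (SD, n = 3 each), a difference of -0.81 (SE 0.20), or 1.75-fold lower with phenolphthalein. Vehicle replicate 1 was the highest array for 4 of the 5 probes. For A_64_P134927 the values were 1.59, 1.84 and 1.96 with phenolphthalein, against 4.21, 2.49 and 2.07 with vehicle. Its difference was -1.13 (SE 0.50) with all arrays and -0.48 without vehicle replicate 1. A_44_P130516 gave -1.05 (SE 0.31) with all arrays and -0.67 without vehicle replicate 1. The fourth, A_44_P130513, gave -0.73 (SE 0.15).

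The fifth RT1-Db1 probe, A_44_P139882, ran the other way. It read -1.81, -1.78 and -1.41 in phenolphthalein rats, against -4.19, -1.99 and -1.03 in vehicle rats. Here vehicle replicate 1 was the lowest of the 6 arrays, where it was the highest by the other probes, and the groups overlapped. The difference was 0.74 (SE 0.72) with all arrays and -0.16 without vehicle replicate 1. Over the 6 arrays this probe correlated with the other 4 at r between -0.912 and -0.658, while those 4 correlated with each other at 0.892 to 0.993. These correlations come from 6 arrays and are a description.

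RT1-Bb, the beta chain of the DQ-like molecule, was lower with phenolphthalein by both of its tested probes. By A_64_P043911 it stood at 2.57, 2.93 and 3.06 in phenolphthalein rats and at 3.43, 3.58 and 3.21 in vehicle rats, a difference of -0.55 (SE 0.15), and the groups did not overlap. By A_44_P500803 the values were 1.92, 2.21 and 2.45 with phenolphthalein, against 2.36, 2.82 and 2.52 with vehicle. This second difference was -0.37 (SE 0.16), and -0.24 without either phenolphthalein replicate 1 or vehicle replicate 2, and the groups overlapped.

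The third RT1-Bb probe, A_44_P552452, was present in a single rat. It read 3.82 in vehicle replicate 1, well above background. It was not well above background on the other 5 arrays, where it measured -8.42, -8.89 and -8.62 in phenolphthalein rats and -7.86 and -8.52 in vehicle replicates 2 and 3. The step from the highest of those to vehicle replicate 1 was 11.7 log2 units. On the whole array, 427 probes stood at least 3 log2 units above all other arrays on 1 array alone, and this probe had the largest step of them. That threshold was set after its values were seen. With phenolphthalein arrays set no lower than the dimmest level well above background, the vehicle mean was 4.41-fold above theirs. Vehicle replicates 2 and 3 entered with readings not well above background, so this value is no bound. It rests on 1 of 3 vehicle arrays. In the deposited value table the same high value stands in the column of vehicle replicate 3.

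Vehicle replicate 1 was not an array with many such probes. It had 53 of the 427, against 121 on vehicle replicate 2 and 97 on phenolphthalein replicate 1. Among its 17 named ones was RT1-A3, a class I gene of the same complex, at -2.70 in vehicle replicate 1. The phenolphthalein rats had -6.77, -6.64 and -8.20 and the other vehicle rats -7.26 and -8.20 by that probe, which was not well above background on those arrays. RT1 genes are among the most variable in sequence between rats. No genotype of the RT1 complex and no probe sequence was analysed here, and the part of sequence differences in these probe values was not tested.

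**Figure D2:**
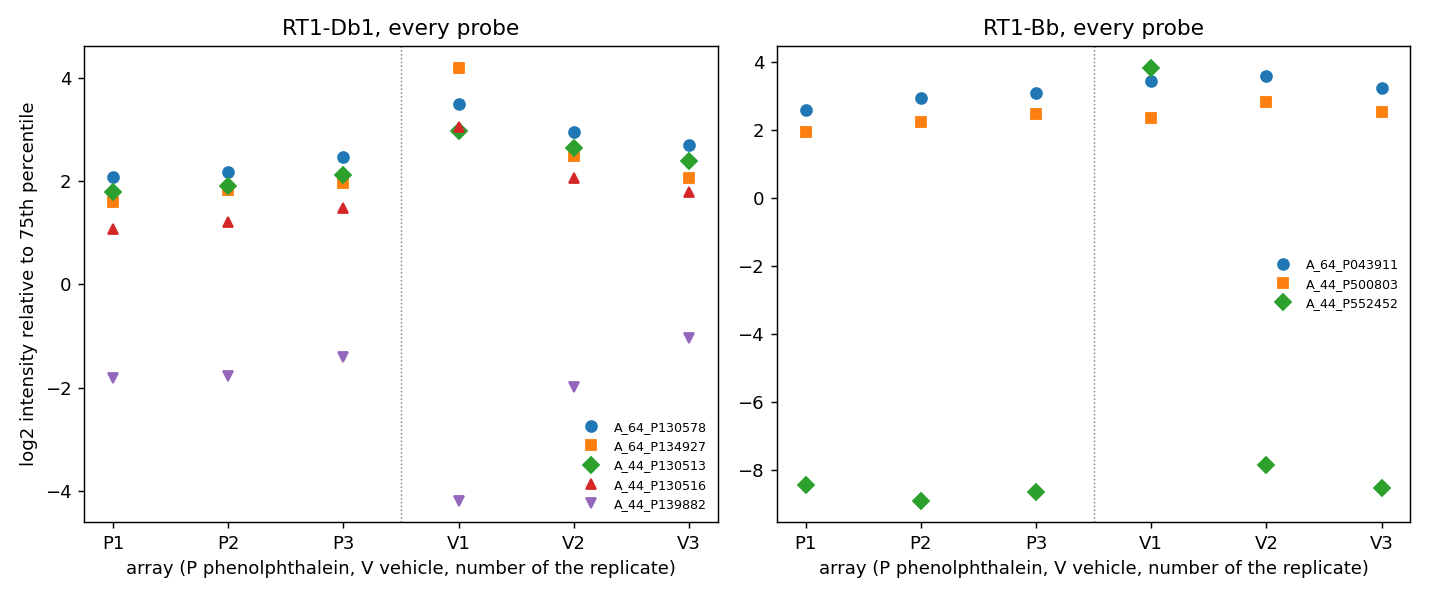
Levels of every probe of RT1-Db1 (left) and RT1-Bb (right) on each array, as log2 intensity relative to the 75th percentile; P is phenolphthalein, V is vehicle and the number is the replicate. A_44_P139882 is lowest, at -4.19, in vehicle replicate 1, where the other RT1-Db1 probes are highest, and A_44_P552452 reaches 3.82 in that rat and lies between -8.89 and -7.86 in the other 5.

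Cd74, the invariant chain, had 1 probe. It stood at 4.80, 4.94 and 5.01 in phenolphthalein rats, below every vehicle rat at 5.46, 5.51 and 5.21. The difference was -0.48 (SE 0.09), or 1.39-fold lower, with SDs of 0.11 in phenolphthalein rats and 0.16 in vehicle rats. It followed the mean of the other tested members more closely than any of them did (r = 0.986 over 6 arrays, against 0.438 to 0.973 for the other 7 genes). Each gene was left out of the mean it was set against. All members were chosen on the difference between the groups, so these correlations partly restate that difference and are a description.

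Ctss, the protease that trims the invariant chain, differed less. Its brighter probe read 2.48, 2.38 and 2.21 in phenolphthalein rats, against 2.53, 2.58 and 2.53 in vehicle rats, a difference of -0.19 (SE 0.08). The groups were close and did not overlap. The second probe read 2.21, 2.01 and 1.83 with phenolphthalein and 2.02, 2.26 and 2.02 with vehicle, so the groups overlapped, and the difference was -0.08 (SE 0.11). Ctss was also the gene that followed the others least (r = 0.438). Its lowest array was phenolphthalein replicate 3 by both probes, and without that array the differences were -0.12 and 0.01.

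RT1-DMa and RT1-DMb encode the 2 chains of the peptide exchange molecule. RT1-DMa stood at 1.58, 1.77 and 1.79 in phenolphthalein rats, against 1.94, 2.04 and 1.64 in vehicle rats by its brighter probe, and vehicle replicate 3 lay among the phenolphthalein values. The difference was -0.16 (SE 0.12), and -0.11 (SE 0.11) by the other probe. With 1 array left out, the first ranged from -0.28 (without vehicle replicate 3) to -0.08 (without vehicle replicate 2) and was -0.09 without phenolphthalein replicate 1. The other ranged from -0.22 (without vehicle replicate 3) to -0.05 (without vehicle replicate 1 or 2) and was -0.07 without phenolphthalein replicate 1. RT1-DMb stood at 1.12, 1.39 and 1.37 in phenolphthalein rats and at 1.95, 1.86 and 1.29 in vehicle rats, a difference of -0.41 (SE 0.18). Here too vehicle replicate 3 fell within the range of the phenolphthalein rats. Without vehicle replicate 3 the RT1-DMb difference was -0.62.

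Ciita, the transactivator, was dimmer but well above background on all 6 arrays by both of its probes. By the brighter probe it stood at -2.55, -1.99 and -1.90 in phenolphthalein rats and at -2.004, -1.57 and -1.83 in vehicle rats, with overlap, a difference of -0.35 (SE 0.20). The second probe read -3.82, -3.06 and -3.22 with phenolphthalein, against -3.03, -2.73 and -2.94 with vehicle, a difference of -0.47 (SE 0.21). Phenolphthalein replicate 1 was the lowest array by both. Without it the differences were -0.14 and -0.24.

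**Figure D3:**
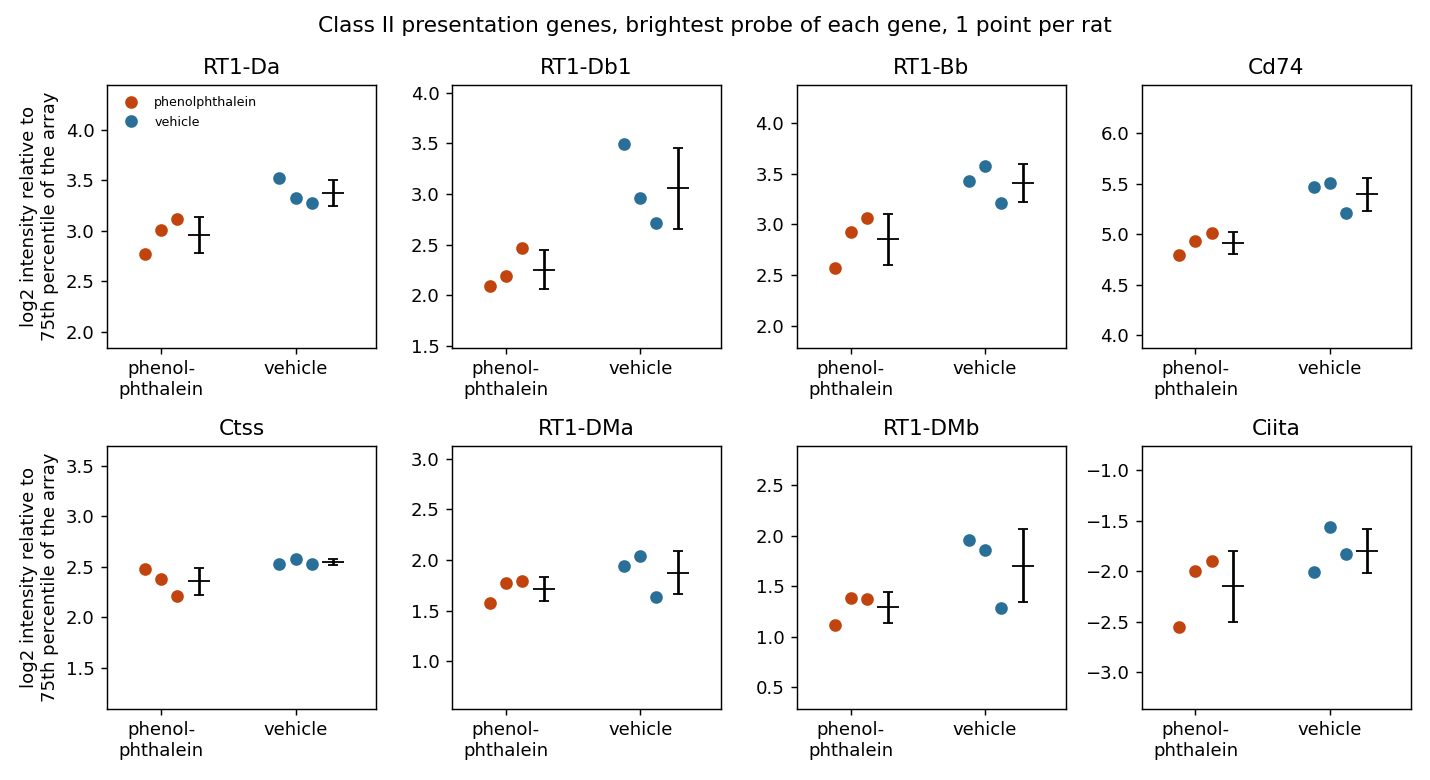
Level of the brightest probe of 8 class II presentation genes in each rat, as log2 intensity relative to the 75th percentile; points are rats, the dash and bar are the mean and SD of 3, and every panel spans the same number of log2 units. Phenolphthalein rats lie below vehicle rats without overlap for RT1-Da, RT1-Db1, RT1-Bb, Cd74 and Ctss, and the groups overlap for RT1-DMa, RT1-DMb and Ciita.

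Phenolphthalein replicate 1 was the lowest of the 6 arrays for 13 of the 17 tested probes, against 25.3% of all tested probes. The members were chosen on this contrast, which by itself makes a phenolphthalein array likely to be their lowest. The count therefore partly restates that choice. For the median member probe, phenolphthalein replicate 1 lay 0.26 log2 below the mean of the other 2 phenolphthalein arrays (-0.26), where all tested probes had a median of -0.01. It is also the array on a slide of its own, and the part of the slide was not tested. Without it, 16 probes were still lower and the median was -0.31. Within the vehicle group, replicate 3 was the lowest for 12 of the 17 probes. The share of all tested probes for which this holds was not computed, so the count shows nothing particular to these genes. Averaged over 1 probe per gene and relative to each gene's vehicle mean, the members stood at -0.59, -0.37 and -0.30 in phenolphthalein rats and at 0.10, 0.09 and -0.19 in vehicle rats.

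**Figure D4:**
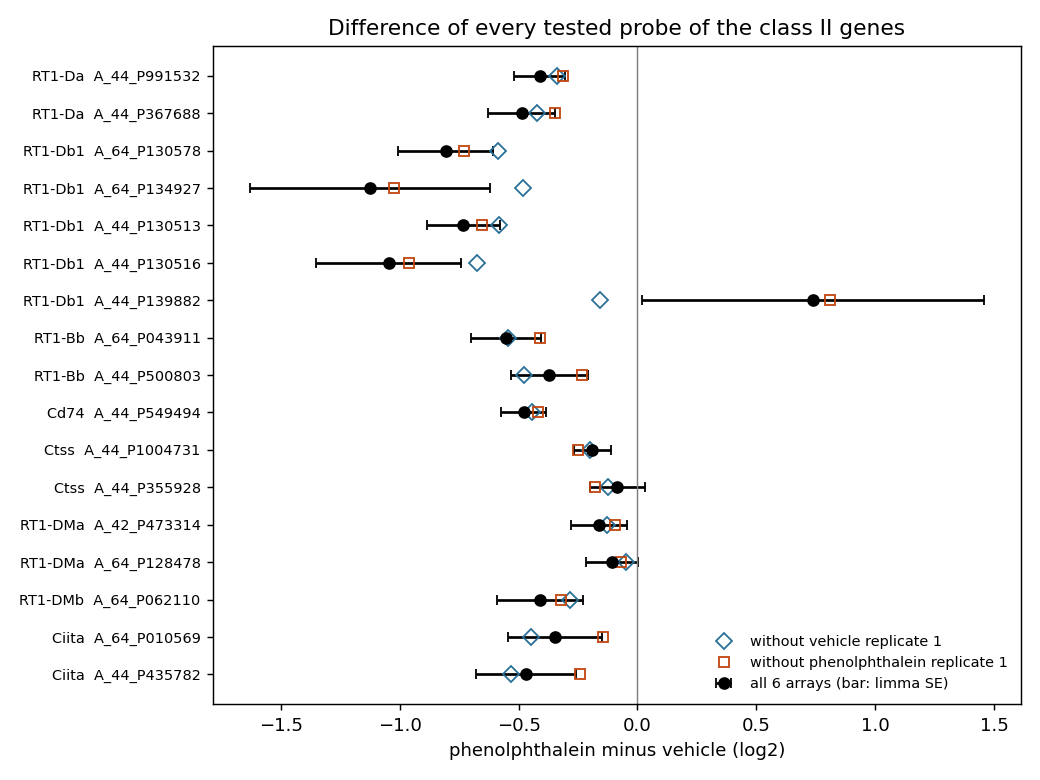
Phenolphthalein minus vehicle (log2) for each of the 17 tested probes: filled points are all 6 arrays with limma's SE, open diamonds leave out vehicle replicate 1 and open squares leave out phenolphthalein replicate 1. A_44_P139882 of RT1-Db1 is at 0.74 with all arrays and at -0.16 without vehicle replicate 1, and the other 16 are below 0 in all of these settings.

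Other genes of the class II region were read by 1 probe per gene, the brightest. RT1-Ha and Btnl2 of that list had no tested probe. RT1-DOb, the beta chain of a molecule that restrains RT1-DM, stood at -2.33, -2.32 and -2.37 in phenolphthalein rats, against -0.79, -1.02 and -1.94 in vehicle rats. The difference was -1.09 (SE 0.28; limma adjusted p = 0.438, lower in 3 of 3 rats), and both of its probes were lower. RT1-Db2, a beta chain gene beside RT1-Db1 whose signal the probes of a close copy may share, had 0.35, 0.50 and 0.69 in phenolphthalein rats, against 1.90, 1.19 and 0.81 in vehicle rats, a difference of -0.79 (SE 0.26). RT1-DOa had -0.53 (SE 0.33), with overlap. These 3 had a median of -0.79, with 2 past an unadjusted p of 0.05, against 4.91% of all tested probes lower at that p.

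The promoter letters used no expression value, but the 4 members with the pair were chosen on this contrast. Besides the 4 members, RT1-DOb and RT1-Db2 held the X and Y core pair, and those 6 were all of the 21 genes with the pair that lie on chromosome 20. Of the other 15 genes, 8 were tested. Hsd17b7, an enzyme of sterol and steroid synthesis, was the only one of them without overlap, at -1.08, -1.42 and -1.46 in phenolphthalein rats and -1.71, -1.68 and -1.52 in vehicle rats. The 10 tested genes with the pair that are not members had 5 lower values and a median difference of 0.00. RT1-DOb was at -1.09 and RT1-Db2 at -0.79, and the other 8 ranged from -0.05 to 0.60. RT1-DOb and RT1-Db2 belong to a list chosen with earlier results of these data known. The part of the promoter letters in these differences was not tested.

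The factors that hold CIITA on these promoters had no common direction. Of 8 tested genes of the RFX and NF-Y complexes and their partners, 4 were lower and 4 higher, with a median of 0.01. Rfx5, the large RFX subunit, read -3.33, -3.11 and -3.39 in phenolphthalein rats and -3.39, -4.03 and -3.88 in vehicle rats, a difference of 0.49 (SE 0.19; limma adjusted p = 0.547, with overlap). Its 2 probes differed in sign. Rfxap, another RFX subunit, had -0.52, -0.51 and -0.47 in phenolphthalein rats, against -0.21, -0.40 and -0.36 in vehicle rats. Rfx5 was the 1 gene of this list past an unadjusted p of 0.05, against 3.91% of all tested probes higher at that p.

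Interferon gamma is the main inducer of Ciita outside professional antigen-presenting cells. All 7 tested genes of its input were lower, against 53.5% of all tested probes, and 0 passed an unadjusted p of 0.05 in limma. The median was -0.11 (-0.04 without phenolphthalein replicate 1 and -0.18 without phenolphthalein replicate 2). Ifngr2 (-0.0007) and Jak1 (-0.01) differed least. Socs1 read -5.69, -5.36 and -5.54 with phenolphthalein and -5.10, -5.11 and -5.09 with vehicle. Its difference was -0.43 (SE 0.20), without overlap. Socs1 was well above background on all 6 arrays. Its values lay near the dimmest levels that were, which ran from -6.56 to -5.54 by array. Irf1, an early transcription factor of the response, read 1.71, 1.97 and 2.01 with phenolphthalein and 2.05, 2.44 and 1.95 with vehicle, a difference of -0.26 (SE 0.14). Ifngr1, a receptor chain, had -0.16 (SE 0.12), with overlap. Ifng itself had no tested probe.

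Endosomal proteases and regulators of class II turnover had a median of -0.09, with 10 of 12 lower, against 53.5% of all tested probes. At an unadjusted p under 0.05, 4 genes were lower and 0 higher, against 4.91% and 3.91% of all tested probes. Cst3, cystatin C, an inhibitor of cathepsins, stood at 6.30, 6.23 and 6.21 in phenolphthalein rats and at 6.67, 6.81 and 6.43 in vehicle rats, a difference of -0.39 (SE 0.09). Cathepsin Z (Ctsz) had -0.49 (SE 0.15) and cathepsin B (Ctsb) -0.16 (SE 0.05), both without overlap. Ifi30, a thiol reductase that unfolds antigens, was at 0.04 (SE 0.07). Many of these enzymes are also lysosomal proteins of tubule cells.

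The class I pathway, which presents peptides from inside the cell, was lower in all 11 tested genes, against 53.5% of all tested probes. Of them, 5 were past an unadjusted p of 0.05, against 4.91% of all tested probes lower at that p. The median was -0.29 by the brightest probe of each gene. With the median over the probes of each gene it was -0.48. Tap1, a chain of the peptide transporter, stood at -2.11, -1.66 and -2.002 in phenolphthalein rats, against -1.37, -0.88 and -1.38 in vehicle rats, a difference of -0.72 (SE 0.18). Psmb9, an immunoproteasome subunit, had -0.61 (SE 0.18), and RT1-A1, a class I heavy chain, -0.34 (SE 0.10). The chaperones Calr (-0.03) and Pdia3 (-0.11) were closer to 0, with overlap.

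Markers of cells that carry class II molecules had lower values too. The 10 tested dendritic cell markers were all lower, against 53.5% of all tested probes. Of them, 3 were past an unadjusted p of 0.05, against 4.91% of all tested probes lower at that p. The dendritic cell markers had a median of -0.27 (-0.43 without vehicle replicate 3 and -0.19 without vehicle replicate 2). Their summed level was 2.43 to 3.05 times the 75th percentile in phenolphthalein rats and 3.33 to 4.20 times in vehicle rats. Bright genes weigh most in that sum, and Fscn1 and Cd83 were the brightest of the list. The groups did not overlap for Cd83, Cd86 and Fscn1 and overlapped for the rest. Those with overlap include Zbtb46 (-0.13), Xcr1 (-0.13), Clec9a (-0.41), Irf8 (-0.28) and Batf3 (-0.27). Xcr1 was well above background on 3 arrays only. Cd83, a maturation marker, stood at -0.67, -0.50 and -0.59 in phenolphthalein rats and at -0.24, 0.42 and 0.23 in vehicle rats. The costimulatory molecule Cd86 differed by -0.48 (SE 0.15), and Itgax, Flt3 and Cd80 had no tested probe.

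Of 15 tested macrophage markers, 12 were lower, against 53.5% of all tested probes, and 3 higher, with a median of -0.41. At an unadjusted p under 0.05, 9 were lower and 2 higher, against 4.91% and 3.91% of all tested probes. The summed level of the macrophage markers was 114 to 126 times the 75th percentile in phenolphthalein rats and 143 to 183 times in vehicle rats. Lyz2, the brightest of them, weighs most in that sum. It read 6.17, 6.08 and 6.07 with phenolphthalein and 6.61, 6.74 and 6.28 with vehicle. Aif1 read 2.81, 3.18 and 2.96 in phenolphthalein rats, against 3.46, 3.61 and 3.38 in vehicle rats, while the mannose receptor Mrc1 read -1.06, -1.38 and -1.50 in phenolphthalein rats, against -2.11, -2.22 and -2.90 in vehicle rats. The array means over the macrophage list overlapped, at -0.17, -0.10 and -0.39 with phenolphthalein and -0.15, 0.20 and -0.06 with vehicle. Their lowest array was phenolphthalein replicate 3, where the lowest for the class II members was replicate 1. Cd163 had no tested probe.

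All 6 tested B cell markers were lower, against 53.5% of all tested probes. Of them, 1 was past an unadjusted p of 0.05, against 4.91% of all tested probes lower at that p. The B cell markers had a median of -0.50 (-0.22 without phenolphthalein replicate 1 and -0.21 without vehicle replicate 2). Their summed level overlapped, however, at 1.41 to 2.49 times the 75th percentile with phenolphthalein and 1.63 to 2.44 times with vehicle. The defining markers Ms4a1 and Cd79a had no tested probe. All 8 T cell markers were lower, against 53.5% of all tested probes. Of them, 2 were past an unadjusted p of 0.05, against 4.91% of all tested probes lower at that p. The T cell markers had a median of -0.59 (-0.31 without vehicle replicate 2). Their summed level was 1.39 to 1.75 times the 75th percentile with phenolphthalein and 1.75 to 2.75 times with vehicle, and the lowest vehicle sum was just under the highest phenolphthalein sum. Cd8a differed by -0.69 (SE 0.20) and Cd3d by -0.40 (SE 0.145). The part of these cells in the class II values was not tested.

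Endothelial markers, which cortical capillaries express, had a median of 0.01, with 3 of 7 lower, against 53.5% of all tested probes. Past an unadjusted p of 0.05 were 0 of them. The summed level of the endothelial markers was 30.7 to 35.5 times the 75th percentile in phenolphthalein rats and 29.2 to 32.5 times in vehicle rats. Renal cortex markers had a median of -0.11, with 7 of 10 lower, against 53.5% of all tested probes. Of these markers, 2 were past an unadjusted p of 0.05, against 4.91% of all tested probes lower at that p. Of 10 liver markers, 9 were higher, where 53.5% of all tested probes were lower. Past an unadjusted p of 0.05 was 1, against 3.91% of all tested probes higher at that p. Liver markers had a median of 0.60. Their array mean was highest in phenolphthalein replicate 2, at 1.497, an array in the middle of the phenolphthalein group for the class II members. Without that array the liver median was 0.04. The liver gene past an unadjusted p of 0.05 was F2, with a difference of 1.48 (SE 0.27) and no overlap. F2 was highest in phenolphthalein replicate 1, at 3.75, against 2.67 in phenolphthalein replicate 2 and 2.90 in phenolphthalein replicate 3. The part of RNA from another organ in the liver marker values was not tested.

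**Figure D5:**
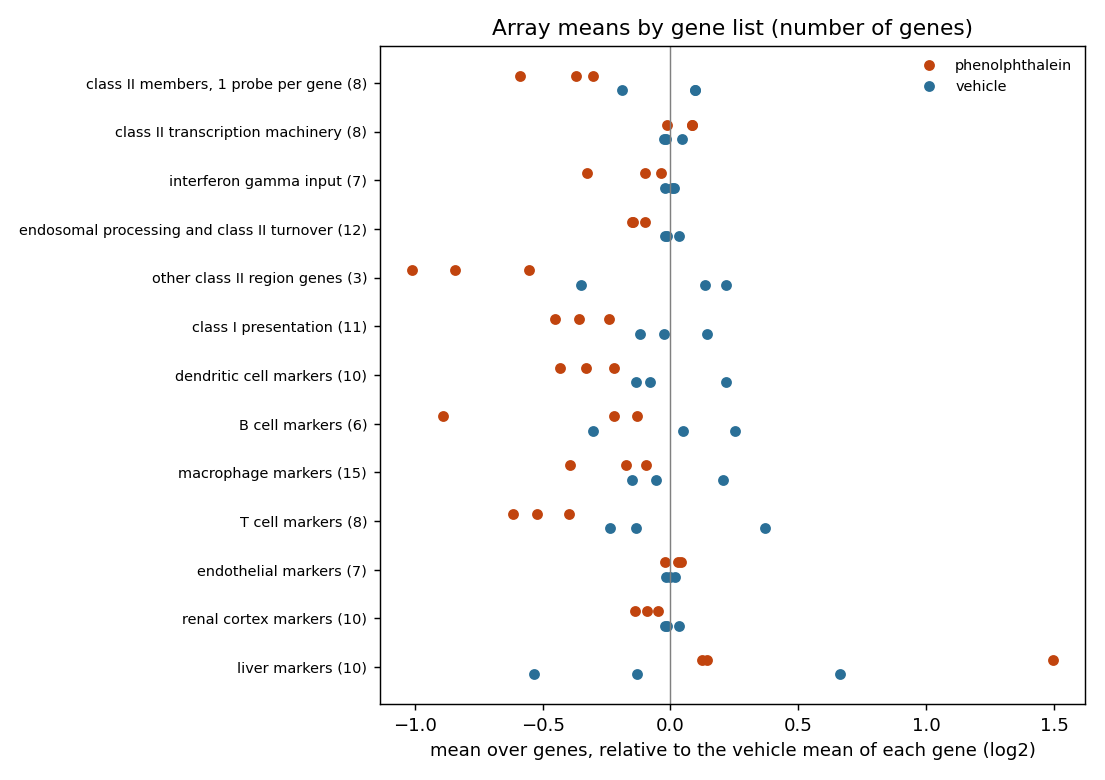
Mean over the tested genes of each list on every array, relative to each gene's vehicle mean (log2, 1 probe per gene, number of genes in parentheses); orange points are phenolphthalein rats and blue points vehicle rats. The class II members stand at -0.59 to -0.30 in phenolphthalein rats and -0.19 to 0.10 in vehicle rats, and the endothelial and transcription machinery lists lie near 0 in both.

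The genes whose pattern over the 6 arrays was most like the mean class II profile were sought among 11496 named genes well above background on all arrays. The 10 closest had Pearson's r between 0.981 and 0.995, which describes 6 arrays and was the top of a long ranking. None of the 10 is in any of the gene lists above. The closest was Trim58 (r = 0.995). In falling order of r, Cbln3, Cd37, Lst1, Psmb5, Mylk3, Gmfb, Cacng7, Lcp2 and Ddx41 followed, and the order below is not that of r. Lcp2, the adaptor SLP-76 of T cell receptor signalling, differed by -0.76 (SE 0.16), Lst1, a leukocyte transcript of the MHC region on chromosome 20, by -0.51 (SE 0.13) and the tetraspanin Cd37 by -0.46 (SE 0.16). Lcp2 read -4.41, -4.20 and -4.01 in phenolphthalein rats, against -3.33, -3.35 and -3.64 in vehicle rats. Mylk3, a myosin light chain kinase of heart muscle, differed by -0.62 (SE 0.21), Cbln3 by -0.51 (SE 0.15) and Cacng7, a calcium channel subunit, by -0.49 (SE 0.24). Gmfb had -0.20 (SE 0.08), the helicase Ddx41 -0.14 (SE 0.06) and Trim58 -0.12 (SE 0.13). Psmb5, a subunit of the constitutive proteasome, followed the profile with a difference of only -0.04 (SE 0.04), so likeness in pattern does not mean likeness in size.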

How the data were processed

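RNA of 6 renal cortex samples was measured on single-colour Agilent arrays, 3 per group. The processed spot intensity is the authors' deposited value, made with Agilent Feature Extraction 10.7.1.1 (background-subtracted, with spatial and multiplicative detrending, per the statistics in the file headers). The submitters' processing notes name version 10.7. The deposited value table holds a ratio whose making no source states. It matched the processed intensity over the array's 75th percentile.

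Here log2 intensity minus the log2 of the 75th percentile over non-control probes was fitted with limma 3.58.1 in R 4.3.3 (intensity trend, Benjamini-Hochberg over 43473 probes, checked on simulated data). Probes well above background on fewer than 3 arrays were left out, and outlier spots were set to missing. Alternatives were normexp, quantile and median scaling, other filters, the value table, slide and replicate blocks, no trend, and other rules for several probes of a gene. Probes were named through RefSeq accessions in a GRCr8 gene table: 27460 matched 1 symbol, 0 several and 34197 none. Coordinates are those of the RefSeq promoter table, as the array is annotated on another build. A mean spot signal is not in the files, so normexp used the median. Named genes are all members, up to 3 genes of each list with the smallest p, and the 10 most like the members' profile; Hsd17b7, RT1-A3 and others outside this rule were named after their values were seen. The members and lists were chosen with earlier results of these data known. The number of arrays limits the precision.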

Additional observations from a re-analysis of the deposited data

How the results depend on the processing

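Over the other ways of processing, the median difference over member probes stayed between -0.43 and -0.38 with all 6 arrays and between -0.50 and -0.31 with 1 array left out. With 1 probe per gene, or the median over a gene's probes, 8 of 8 tested genes were lower, where 16 of 17 probes were lower in the main setting, since there are fewer items, and 18 of 19 were lower with no filter. Leaving out 1 array gave 15 to 17 lower probes. Calls at an adjusted p under 0.05 were 0 lower and 0 higher in every setting with all 6 arrays, the replicate block (0 and 0) included, and 0 to 1 lower and 0 to 1 higher with 1 array left out, none of them a member. Probes lower at an unadjusted p under 0.05 numbered 2135 in the main setting and 1418 without vehicle replicate 3. Deviations from the group means correlated at -0.00891, -0.00920 and 0.0429 between animals of one number, so the numbers were not taken as pairs, and the replicate block moved no call. Leaving out 1 array changed the sign of 2 member probes: the Ctss probe A_44_P355928 ranged from -0.18 to 0.0088, and the RT1-Db1 probe A_44_P139882 from -0.16 (without vehicle replicate 1) to 1.42. It also changed the sign of 2 list medians near 0, class II transcription machinery (-0.020 to 0.034) and endothelial markers (-0.036 to 0.043). With normexp the medians of the B cell and T cell markers were -0.13 and -0.24, and with the median over the probes of a gene that of the class I genes was -0.48. The cause was not tested.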
